A study of Homo sapiens with 8 samples.

Results

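The genes described here are 32 genes of sterol synthesis and of its control by the sterol regulatory element binding proteins (SREBPs), chosen by symbol from their roles in the pathway, with earlier results of these data known. They were followed in the RNA sequencing of 2 T-cell acute lymphoblastic leukemia (T-ALL) lines, 6T-CEM and J.gamma1, among 64252 genes counted. The comparison asks what a knockdown of LDB1, a nuclear adaptor that binds LIM-domain proteins and joins complexes with GATA factors, did to these genes. The control cells carried sh-NC, a short hairpin RNA without this target, and the LDB1-knockdown cells carried sh-LDB1, both delivered by lentivirus in the pLKO.1 vector with puromycin selection, which all groups therefore share. 6T-CEM derives from the CCRF-CEM leukemia line and J.gamma1 from the Jurkat line, so that each background is a single cultured line. Each of the 4 groups had 2 libraries, and which of the LDB1 hairpins the sequenced cells carried is not given in the sources used here. The labels do not say whether the 2 libraries of a group came from separate cultures, so p-values measure only the spread between these libraries.

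Cells build cholesterol from acetyl-CoA. The mevalonate arm makes farnesyl diphosphate, the next enzymes join it into squalene and close the rings to lanosterol, and the late steps trim lanosterol to cholesterol. SREBP precursors, made from SREBF1 and SREBF2, sit in the endoplasmic reticulum with the escort protein SCAP. INSIG proteins hold SCAP there when sterols are plentiful. When sterols run low, SCAP carries the precursors to the Golgi, where the proteases encoded by MBTPS1 and MBTPS2 release the active factor, which enters the nucleus and switches on the genes of the pathway together with partners such as NF-Y. Most enzymes of the pathway, INSIG1 and SREBF2 itself are known targets, and growing cells use the pathway to supply membrane.

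Libraries held from 26160492 to 30604977 counts in total, and each of the 32 genes had between 232 and 28401 counts in every library, so that all of them passed the filter on low counts in both lines. Levels are given as CPM, the count scaled to the library's size after TMM normalization. LDB1 itself had 107 and 111 CPM in 6T-CEM sh-NC and 37.0 and 35.0 CPM in 6T-CEM sh-LDB1. In J.gamma1 it had 60.2 and 58.8 CPM in sh-NC and 33.2 and 30.8 CPM in sh-LDB1. LDB1 fell by 1.60 (SE 0.07) on the log2 scale in 6T-CEM and by 0.89 (SE 0.08) in J.gamma1, and by edgeR's quasi-likelihood test the adjusted p was 1.02e-09 and 3.68e-06. Of 10 T-lineage markers, 8 were at 1 CPM or more in every library, while 0 of 5 myeloid, 0 of 4 erythroid and 0 of 4 epithelial or packaging-cell markers were, and 3 of the erythroid markers had 0 counts throughout. Of 5 B-lineage markers, CD79A and CD79B passed this level. The summed CPM of the T-lineage markers ranged from 1532 to 1593 in 6T-CEM sh-NC, from 1948 to 1969 in 6T-CEM sh-LDB1, from 2081 to 2131 in J.gamma1 sh-NC and from 2518 to 2600 in J.gamma1 sh-LDB1. The B-lineage sum ranged from 33.7 to 34.7, from 43.1 to 46.4, from 69.7 to 71.7 and from 79.1 to 79.2 CPM in the same order. The marker sums moved with the knockdown, but single markers within a list moved in opposite directions. In 6T-CEM, CD3E rose by 0.63 and CD5 fell by 0.54 on the log2 scale, and CD79A rose by 0.74 and CD79B fell by 0.99. In J.gamma1, CD3E rose by 0.94 and LCK fell by 0.38. The part of the markers in the results on the sterol genes was not tested. In bulk RNA, fewer cells of a kind and less RNA per cell cannot be told apart.

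The promoters of 5 genes are shown because the results below turn on them. HMGCS1, FDPS and INSIG1 were among the strongest falls, and TM7SF2 and SREBF2 answered differently in the lines. Each is the RefSeq sequence of GRCh38.p14 from 250 bases before to 50 after a start of the gene, written 5′ to 3′ along the gene. Capitals mark the sterol regulatory element TCACNCCAC, the NF-Y box CCAAT and the GATA motif AGATAA on either strand, so that ATTGG and TTATCT are matches on the opposite strand.
HMGCS1, chr5:43313363-43313662, strand minus: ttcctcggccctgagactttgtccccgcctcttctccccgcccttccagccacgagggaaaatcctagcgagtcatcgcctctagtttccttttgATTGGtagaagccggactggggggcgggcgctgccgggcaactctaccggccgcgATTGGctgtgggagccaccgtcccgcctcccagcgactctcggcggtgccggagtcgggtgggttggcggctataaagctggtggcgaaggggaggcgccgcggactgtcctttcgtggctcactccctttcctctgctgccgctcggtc
FDPS, chr1:155308616-155308915, strand plus: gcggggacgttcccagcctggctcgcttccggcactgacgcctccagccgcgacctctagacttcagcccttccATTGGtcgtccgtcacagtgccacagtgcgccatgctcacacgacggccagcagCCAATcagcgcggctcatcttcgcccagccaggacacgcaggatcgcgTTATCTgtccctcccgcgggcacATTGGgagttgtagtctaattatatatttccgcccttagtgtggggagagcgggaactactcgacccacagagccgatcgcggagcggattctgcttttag
INSIG1, chr7:155297628-155297927, strand plus: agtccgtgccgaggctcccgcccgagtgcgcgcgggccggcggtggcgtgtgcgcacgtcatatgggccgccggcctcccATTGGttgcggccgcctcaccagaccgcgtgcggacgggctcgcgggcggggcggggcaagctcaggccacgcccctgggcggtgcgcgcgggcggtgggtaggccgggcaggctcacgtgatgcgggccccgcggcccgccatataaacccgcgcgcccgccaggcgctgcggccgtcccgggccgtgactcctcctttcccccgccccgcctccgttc
TM7SF2, chr11:65111622-65111921, strand plus: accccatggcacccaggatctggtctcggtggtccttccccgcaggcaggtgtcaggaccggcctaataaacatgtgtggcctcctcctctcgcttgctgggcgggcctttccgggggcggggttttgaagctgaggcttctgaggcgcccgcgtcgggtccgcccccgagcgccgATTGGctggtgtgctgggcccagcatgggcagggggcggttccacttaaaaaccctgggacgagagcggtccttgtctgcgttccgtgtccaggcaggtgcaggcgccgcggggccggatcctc
SREBF2, chr22:41832855-41833154, strand plus: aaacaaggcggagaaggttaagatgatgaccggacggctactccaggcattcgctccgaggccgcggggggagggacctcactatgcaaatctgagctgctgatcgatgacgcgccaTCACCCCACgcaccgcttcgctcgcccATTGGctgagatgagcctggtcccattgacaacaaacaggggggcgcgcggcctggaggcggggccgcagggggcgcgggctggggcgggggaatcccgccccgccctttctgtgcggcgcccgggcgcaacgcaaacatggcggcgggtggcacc
No matches overlap in these 5 windows. HMGCS1 has 2 NF-Y boxes, beginning 155 and 100 bases before the start. FDPS has 3 NF-Y boxes and a GATA motif, and INSIG1 and TM7SF2 have 1 NF-Y box each. SREBF2 holds the sterol regulatory element, beginning 133 bases before the start, and an NF-Y box, beginning 106 bases before the start.

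RefSeq promoters were found for 29 of the 32 genes, with 37 entries in all, since some genes have several starts. An NF-Y box was present in 20 of the 37 (54.1%), against 35.0% of the 14320 promoters of genes tested in both lines and 34.6% of all 35116 promoters in the table. At least 2 NF-Y boxes were present in 37.8%, against 12.6% and 10.8%. The letters of the sterol regulatory element were found in 1 of the 37 (2.70%), against 1.03% and 1.13%, and those of the GATA motif in 2 (5.41%, FDPS and CYP51A1), against 5.71% and 10.3%. For the 18 genes with an NF-Y box, the median log2 fold change with sh-LDB1 was -0.61 (6T-CEM) and -0.79 (J.gamma1). The 11 genes without it had medians of -0.09 and -0.20. The 2 sets also differ in the arms they hold. Outside the synthesis arms (mevalonate, squalene to lanosterol, late steps) are NPC1, SREBF1, SCAP, MBTPS1, MBTPS2, INSIG2 and LPIN1 among the 11. Among the 18 they are STARD4, TMEM97, SREBF2 and INSIG1. All genes of the synthesis arms had medians of -0.57 (6T-CEM) and -0.89 (J.gamma1), so the box and the arm cannot be told apart here. Over all tested genes with a box the medians were 0.0024 and -0.039, and over those without it -0.014 and -0.0025. These shares and medians are descriptions, and a match of letters is not a binding site. Only the letters given were searched, in windows of 300 bases, so sites with other letters or outside the windows were missed.

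In 6T-CEM, 22 of the 32 genes fell with sh-LDB1 and 2, STARD4 and SCAP, rose, at an adjusted p under 0.05 by edgeR's quasi-likelihood test. Of all 16059 genes tested in this line, 16.2% were called lower and 15.1% higher. In J.gamma1, 25 genes fell and 3, TM7SF2, SCAP and MBTPS2, rose, against 26.5% called lower and 25.0% called higher of 17215 genes. The 32 genes had a median log2 fold change of -0.44 (6T-CEM) and -0.66 (J.gamma1), and that of all genes tested was 0.0027 and -0.0002. With a log2 fold change beyond 1 also required, HMGCS1 and LSS were called lower in 6T-CEM (background 2.39%). ACAT2, HMGCS1, IDI1, FDPS, FDFT1, SQLE, MSMO1 and INSIG1 were called lower in J.gamma1 (background 7.19%). By this rule 0 of the 32 genes were called higher in either line by edgeR and by DESeq2, while edgeR called 2.74% (6T-CEM) and 6.67% (J.gamma1) of all genes higher. With an unadjusted p under 0.05 by edgeR in place of the adjusted p, the count was also 0, and the share of all genes was not computed. The plot of levels by library shows these values gene by gene.

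**Figure D1:**
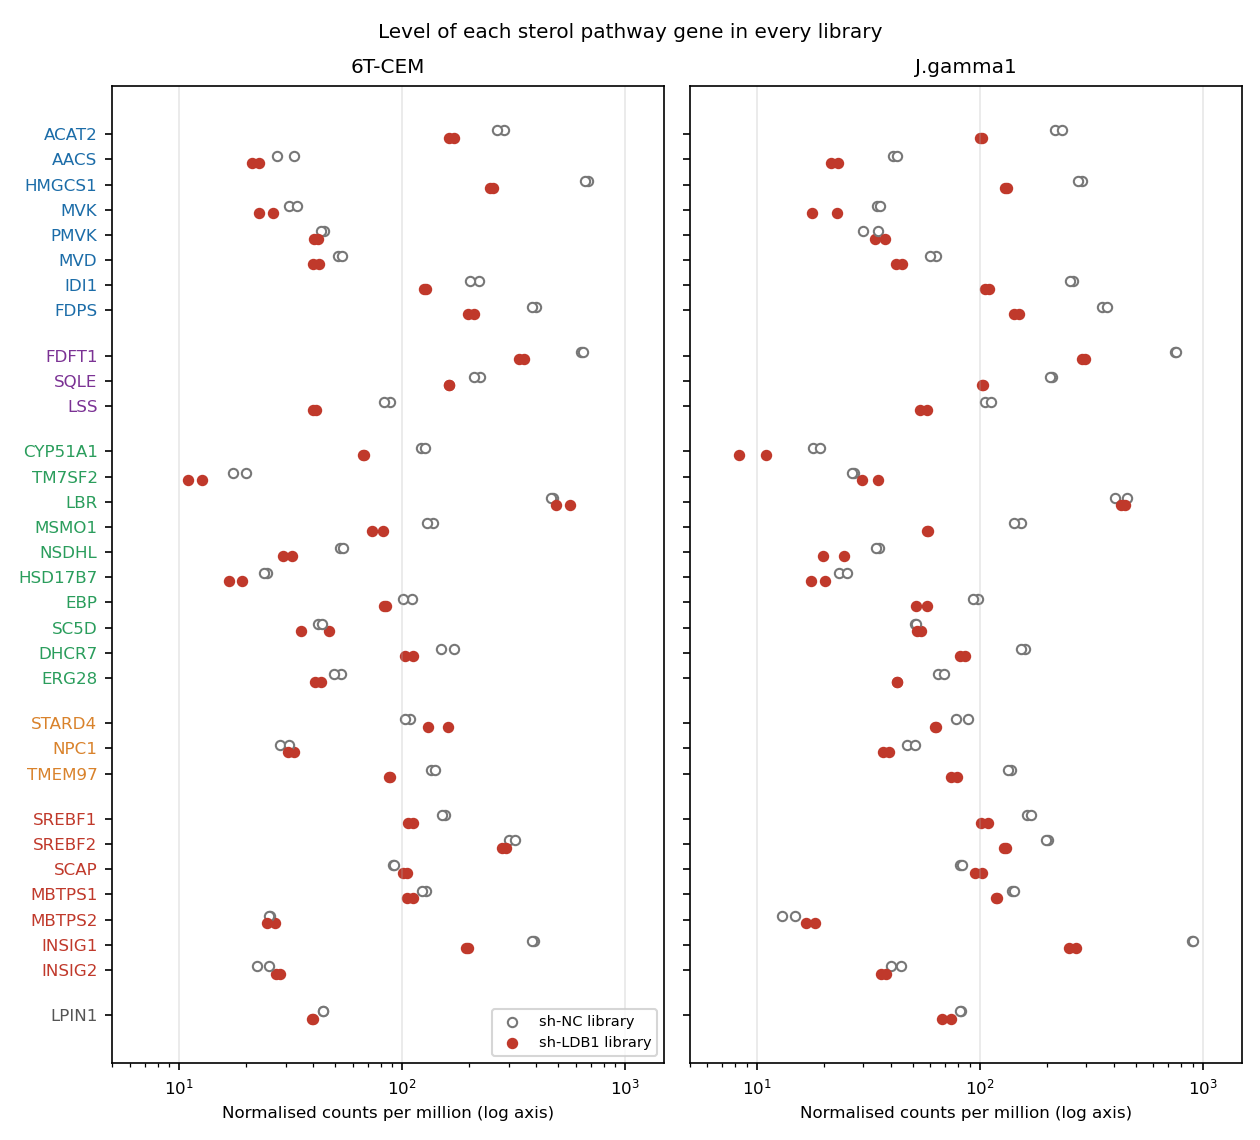
Level in CPM (log axis) of each of the 32 genes in the 4 libraries of 6T-CEM (left) and of J.gamma1 (right), with sh-NC libraries as open grey circles and sh-LDB1 libraries as filled red circles. Label colours mark, from top to bottom, the mevalonate arm, squalene to lanosterol, late sterol steps, sterol uptake and transport, SREBP control and LPIN1, and the groups overlap for 3 genes in 6T-CEM and for 2 in J.gamma1.

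The knockdown libraries were both under the control libraries for 25 of the 32 genes in 6T-CEM, against 33.2% of all genes tested, and for 26 in J.gamma1, against 38.6%. They lay above for 4 genes in each line, but the share of all genes that lay above was not computed, so nothing is read from this count. SC5D, NPC1 and MBTPS2 overlapped in 6T-CEM, and PMVK and LBR overlapped in J.gamma1. The 32 genes together had 5300 and 5233 CPM in 6T-CEM sh-NC and 3617 and 3562 CPM in 6T-CEM sh-LDB1, so that the knockdown cells held 68.2% of the control level. In J.gamma1 they had 5338 and 5294 CPM in sh-NC and 2857 and 2920 CPM in sh-LDB1, or 54.3%. The control sums of the lines over all 32 genes were close, while the knockdown libraries of J.gamma1 lay below those of 6T-CEM. Parts of the control sum differed, since the genes of the synthesis arms had a mean of 3832 CPM in 6T-CEM sh-NC and 3422 CPM in J.gamma1 sh-NC. INSIG1 alone had means of 388 and 898 CPM in the same order.

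**Figure D2:**
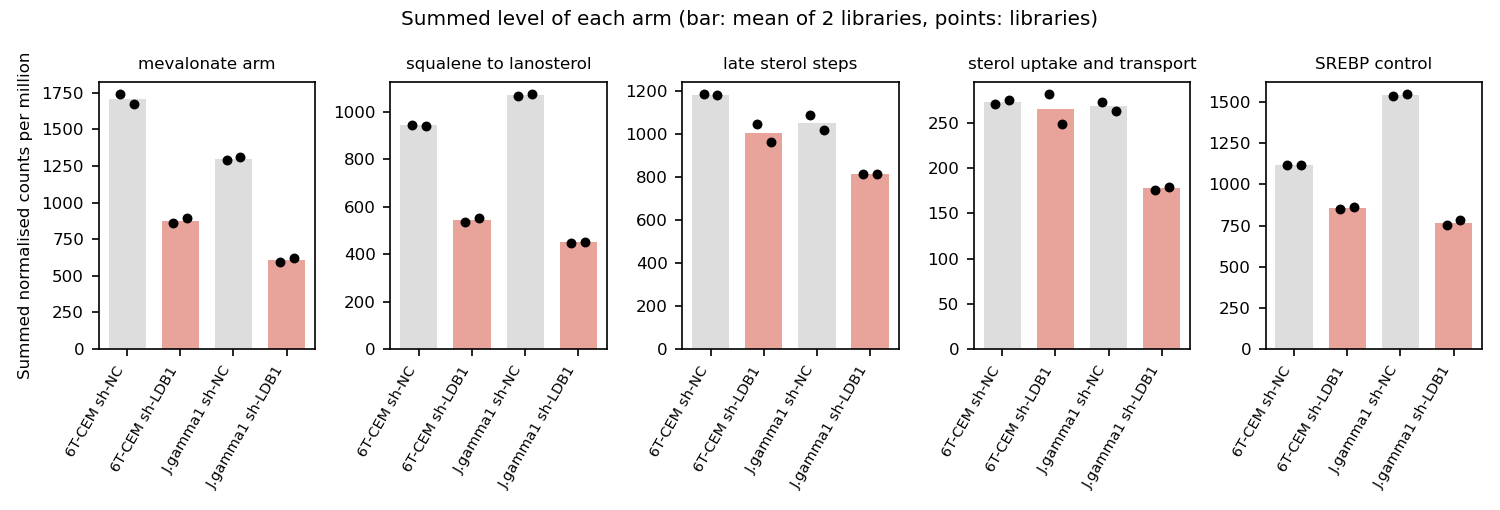
Summed CPM of 5 arms of the pathway in the 4 groups, with bars for the mean of 2 libraries, starting at 0, and points for the libraries. The mevalonate arm was at 51.4% of control in 6T-CEM and 46.7% in J.gamma1, and the sterol uptake arm at 97.0% and 66.2%.

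In the mevalonate arm, 7 of 8 genes fell in each line, and the medians of the log2 fold change were -0.59 (6T-CEM) and -1.0 (J.gamma1). HMGCS1 (ENSG00000112972, chromosome 5, 43287470 to 43313512), which makes HMG-CoA, had 679 and 658 CPM in 6T-CEM sh-NC and 248 and 254 CPM in sh-LDB1. The J.gamma1 libraries had 288 and 276 CPM in sh-NC and 129 and 132 CPM in sh-LDB1. Its groups were far apart in both lines. HMGCS1 fell by 1.41 (SE 0.05) and by 1.10 (SE 0.05) on the log2 scale, with an adjusted p by edgeR of 1.2e-10 and 2.93e-08. FDPS, which makes farnesyl diphosphate, had 397 and 383 CPM in 6T-CEM sh-NC and 197 and 210 CPM in sh-LDB1. The level in J.gamma1 was 354 and 373 CPM in sh-NC and 142 and 150 CPM in sh-LDB1. FDPS thus fell from like control levels to a lower level in J.gamma1, with log2 fold changes of -0.93 and -1.31 (SE 0.06 and 0.05).

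IDI1, the isomerase that balances the isoprenoid units, had 221 and 201 CPM in 6T-CEM sh-NC and 126 and 127 CPM in sh-LDB1. In J.gamma1 it had 262 and 253 CPM in sh-NC and 105 and 109 CPM in sh-LDB1. The control libraries were higher in J.gamma1 and the knockdown libraries lower, and the log2 fold changes were -0.73 and -1.26. ACAT2, a cytosolic thiolase at the entry of the pathway, had 288 and 265 CPM in 6T-CEM sh-NC and 163 and 171 CPM in sh-LDB1. The J.gamma1 libraries had 217 and 234 CPM in sh-NC and 100 and 102 CPM in sh-LDB1, and its log2 fold changes were -0.73 and -1.15. ACAT2 shares 454 bases, 17.2% of its exons, with TCP1 on the opposite strand, and whether the counting used strand is not given. TCP1 itself had log2 fold changes of -0.11 (not called) and 0.51.

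AACS, which activates acetoacetate, MVK, the mevalonate kinase, and MVD, the mevalonate diphosphate decarboxylase, fell in both lines. The 6T-CEM log2 fold changes were -0.45, -0.39 and -0.35, and the J.gamma1 ones -0.89, -0.79 and -0.49. In 6T-CEM the call of AACS was lost without sh-NC replicate 2 or sh-LDB1 replicate 1 (adjusted p by edgeR 0.0919 and 0.0551), and that of MVK without sh-NC replicate 2 or sh-LDB1 replicate 2 (0.0717 and 0.0932). PMVK, the kinase between MVK and MVD, stood apart from its neighbours. It had 44.8 and 43.4 CPM in 6T-CEM sh-NC and 40.1 and 42.1 CPM in sh-LDB1, and 29.9 and 34.8 CPM in J.gamma1 sh-NC and 34.0 and 37.7 CPM in sh-LDB1. Its log2 fold changes, -0.09 (SE 0.08) and 0.15 (SE 0.09), did not pass the test.

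The 3 genes from squalene to lanosterol fell in both lines, against 10.5% of the 14902 genes tested in both. Their medians were -0.90 (6T-CEM) and -1.01 (J.gamma1). FDFT1, squalene synthase, had 632 and 648 CPM in 6T-CEM sh-NC and 333 and 352 CPM in sh-LDB1. The level in J.gamma1 was 748 and 757 CPM in sh-NC and 288 and 295 CPM in sh-LDB1. The FDFT1 log2 fold changes were -0.90 (SE 0.05) and -1.36 (SE 0.04). SQLE, squalene epoxidase, had 224 and 211 CPM in 6T-CEM sh-NC and 162 and 162 CPM in sh-LDB1. In J.gamma1 SQLE had 212 and 206 CPM in sh-NC and 102 and 104 CPM in sh-LDB1. Its control levels were alike and its knockdown levels were not, with log2 fold changes of -0.42 (SE 0.06) and -1.01 (SE 0.05). LSS, lanosterol synthase, had 88.2 and 83.2 CPM in 6T-CEM sh-NC and 41.1 and 40.0 CPM in sh-LDB1, and 106 and 112 CPM in J.gamma1 sh-NC and 58.3 and 53.9 CPM in sh-LDB1. LSS fell by 1.08 and 0.95 on the log2 scale.

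Of the 10 genes of the late steps, 8 fell in 6T-CEM, with a median of -0.51, where 16.2% of all genes tested were called lower. In J.gamma1, 7 fell and TM7SF2 rose, with a median of -0.64, where 26.5% of all genes were called lower and 25.0% higher. CYP51A1 (ENSG00000001630, chromosome 7, 92084987 to 92134803), the lanosterol demethylase, had 121 and 126 CPM in 6T-CEM sh-NC and 66.5 and 67.7 CPM in sh-LDB1. In J.gamma1 CYP51A1 had 17.8 and 19.2 CPM in sh-NC and 8.29 and 11.0 CPM in sh-LDB1. Every library of J.gamma1 was thus far below every library of 6T-CEM, yet the log2 fold changes were close, at -0.88 (SE 0.06) and -0.94 (SE 0.14). MSMO1, the next oxidase, had 137 and 130 CPM in 6T-CEM sh-NC and 81.65 and 73.6 CPM in sh-LDB1. In J.gamma1 MSMO1 had 153 and 142 CPM in sh-NC and 57.7 and 58.7 CPM in sh-LDB1, with log2 fold changes of -0.78 and -1.34.

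NSDHL, which removes the carboxyl group that MSMO1 makes, fell by 0.79 in 6T-CEM and by 0.64 in J.gamma1 on the log2 scale. EBP, the sterol isomerase, fell by 0.33 and 0.80. DHCR7, the last reductase on the way to cholesterol, had 150 and 170 CPM in 6T-CEM sh-NC and 103 and 112 CPM in sh-LDB1. In J.gamma1 DHCR7 had 160 and 153 CPM in sh-NC and 85.7 and 81.5 CPM in sh-LDB1, so that its log2 fold changes were -0.57 and -0.90. HSD17B7, the keto-reductase, and ERG28, a scaffold of the demethylating enzymes, had smaller changes. They were at -0.45 and -0.36, and at -0.29 and -0.65, in 6T-CEM and J.gamma1. The HSD17B7 call was lost without 6T-CEM sh-NC replicate 1 or sh-LDB1 replicate 2 (adjusted p by edgeR 0.0804 and 0.0734), and without J.gamma1 sh-NC replicate 2 or sh-LDB1 replicate 1 (0.0764 and 0.0999). The ERG28 call in 6T-CEM was lost without sh-NC replicate 1 or sh-LDB1 replicate 2 (0.125 and 0.0802) and by DESeq2 (0.0652).

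TM7SF2 and LBR encode sterol reductases that carry out the same step, and neither moved with the rest of the arm in J.gamma1. TM7SF2 (ENSG00000149809, chromosome 11, 65111845 to 65116384) had 17.4 and 19.97 CPM in 6T-CEM sh-NC and 10.9 and 12.6 CPM in sh-LDB1. In J.gamma1 it had 27.2 and 26.8 CPM in sh-NC and 29.7 and 35.1 CPM in sh-LDB1. The TM7SF2 log2 fold change was -0.67 (SE 0.14, adjusted p by edgeR 0.00186) in 6T-CEM and 0.27 (SE 0.09, 0.0316) in J.gamma1. The rise in J.gamma1 did not pass by DESeq2 (adjusted p 0.160), and by edgeR it did not pass without the filter on low counts (0.0818), in the fit of all 8 libraries (0.0792), or without sh-NC replicate 1, sh-NC replicate 2 or sh-LDB1 replicate 2 (0.0655, 0.0990 and 0.244). LBR, also a protein of the nuclear envelope, had 477 and 463 CPM in 6T-CEM sh-NC and 565 and 490 CPM in sh-LDB1, and 457 and 405 CPM in J.gamma1 sh-NC and 448 and 429 CPM in sh-LDB1. Its log2 fold changes were 0.17 (SE 0.06, adjusted p by edgeR 0.0563) and 0.03 (SE 0.06). In 6T-CEM LBR was called higher by DESeq2 (0.0132), and by edgeR with upper quartile factors (0.0255), with a filter of 50 counts in 2 libraries (0.0367), with the replicate number as a block (0.0348) and without sh-LDB1 replicate 2 (0.00984). SC5D, the sterol desaturase, was at -0.06 (SE 0.12) and 0.06 (SE 0.07), and did not pass in either line.

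The 3 genes of sterol uptake and transport differed among themselves. TMEM97, which binds the transporter NPC1, fell by 0.64 and 0.82 on the log2 scale in 6T-CEM and J.gamma1. NPC1, which lets cholesterol out of lysosomes, had 28.2 and 31.1 CPM in 6T-CEM sh-NC and 32.6 and 30.7 CPM in sh-LDB1, which overlap. In J.gamma1 NPC1 had 47.2 and 51.1 CPM in sh-NC and 38.99 and 36.8 CPM in sh-LDB1, with a log2 fold change of -0.37 (SE 0.08). STARD4 (ENSG00000164211, chromosome 5, 111496033 to 111512590), a soluble carrier of sterol between membranes, had 109 and 103 CPM in 6T-CEM sh-NC and 161 and 130 CPM in sh-LDB1. The J.gamma1 libraries had 88.4 and 77.9 CPM in sh-NC and 62.8 and 63.6 CPM in sh-LDB1. STARD4 thus rose by 0.46 (SE 0.10, adjusted p by edgeR 0.0073) in 6T-CEM and fell by 0.39 (SE 0.07, 9.4e-04) in J.gamma1 on the log2 scale. The rise lost its call without 6T-CEM sh-NC replicate 1 or sh-NC replicate 2 (0.0740 and 0.0803). NPC1 shares 619 exon bases with RMC1 on the opposite strand, which fell by 0.63 in J.gamma1.

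Among the 7 genes of SREBP control, 3 fell and 1 rose in 6T-CEM, and 4 fell and 2 rose in J.gamma1, with medians of -0.12 and -0.23. Of all genes tested, 16.2% were lower and 15.1% higher in 6T-CEM and 26.5% and 25.0% in J.gamma1, so the rises are near the background. INSIG1 (ENSG00000186480, chromosome 7, 155297776 to 155310235), the sterol-dependent anchor, had 391 and 384 CPM in 6T-CEM sh-NC and 197 and 193 CPM in sh-LDB1. The level in J.gamma1 was 895 and 900.3 CPM in sh-NC and 251 and 271 CPM in sh-LDB1. The INSIG1 log2 fold changes were -0.99 (SE 0.05, adjusted p by edgeR 6.65e-09) and -1.78 (SE 0.05, 1.46e-09), and the second was the largest fall among the 32 genes. INSIG2, its relative, had 22.3 and 25.3 CPM in 6T-CEM sh-NC and 27.3 and 28.4 CPM in sh-LDB1, and 44.6 and 40.2 CPM in J.gamma1 sh-NC and 36.1 and 38.1 CPM in sh-LDB1. The INSIG2 values, 0.23 (SE 0.10) and -0.19 (SE 0.08), did not pass the test.

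SREBF2 (ENSG00000198911, chromosome 22, 41833105 to 41907306), which encodes the SREBP best known for cholesterol genes, had 302 and 321 CPM in 6T-CEM sh-NC and 280.0 and 293 CPM in sh-LDB1. In J.gamma1 it had 201 and 199 CPM in sh-NC and 132 and 128 CPM in sh-LDB1. SREBF2 was thus at -0.12 (SE 0.06, adjusted p by edgeR 0.131) and -0.62 (SE 0.05, 2.01e-06) on the log2 scale. SREBF1, which encodes the SREBP isoforms tied mainly to fatty acid synthesis, had 156 and 151 CPM in 6T-CEM sh-NC and 106 and 112 CPM in sh-LDB1. In J.gamma1 SREBF1 had 164 and 170 CPM in sh-NC and 101 and 108 CPM in sh-LDB1, with log2 fold changes of -0.49 and -0.66. Thus SREBF1 fell in both lines, while SREBF2 passed the test in J.gamma1.

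SCAP had 90.6 and 91.5 CPM in 6T-CEM sh-NC and 101 and 106 CPM in sh-LDB1, and 81.4 and 83.2 CPM in J.gamma1 sh-NC and 95.5 and 102 CPM in sh-LDB1. Its log2 fold changes were 0.18 (SE 0.06, adjusted p by edgeR 0.0381) and 0.27 (SE 0.06, 0.00203). The call in 6T-CEM was lost without any 1 of the 4 libraries (0.0535 to 0.194), without the filter on low counts (0.0787) and by DESeq2 (0.0521). MBTPS1 was at -0.20 and -0.23, and its call in 6T-CEM was lost without sh-NC replicate 1 or sh-LDB1 replicate 2 (0.181 and 0.154), with upper quartile factors (0.0542), without the filter on low counts (0.0522) and by DESeq2 (0.0733). MBTPS2 was at 0.03 (not called) and 0.33, and its call in J.gamma1 was lost by DESeq2 (0.192) and by edgeR without the filter (0.0797), with the replicate number as a block (0.0565), or without sh-NC replicate 2, sh-LDB1 replicate 1 or sh-LDB1 replicate 2 (0.229, 0.0513 and 0.196). MBTPS2 shares 1093 exon bases with YY2 on the same strand, which had a log2 fold change of 1.29 in J.gamma1. LPIN1, an SREBP target that makes diacylglycerol, was at -0.15 (not called) and -0.20, and its call in J.gamma1 was lost without sh-NC replicate 1 or sh-LDB1 replicate 2 (0.0731 and 0.167) and with upper quartile factors (0.0687).

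Across the lines, 21 of the 32 genes were lower in both, against 10.5% of the 14902 genes tested in both. SCAP was higher in both. STARD4 and TM7SF2 were called in opposite directions, against 3.34% of all genes. NPC1, SREBF2, LPIN1 and MBTPS2 were called in J.gamma1 alone. Such a call is not by itself a difference between the lines. In the test of that difference described below, NPC1 and SREBF2 passed. LPIN1, at -0.05 (SE 0.09), and MBTPS2, at 0.30 (SE 0.15), did not. PMVK, LBR, SC5D and INSIG2 were called in neither line, although LBR passed in 6T-CEM under some alternatives. Pearson's r between the log2 fold changes of the lines was 0.730 across the 32 genes and Spearman's rho was 0.786, and across all 14902 genes 0.468 and 0.446. Genes are not independent replicates, and within a line all values share the same 4 libraries. The fold change also went with the control level across the 32 genes, at a Pearson's r of -0.44 (6T-CEM) and -0.62 (J.gamma1), where the genes with more CPM had the more negative values. Both of these quantities rest on the same sh-NC libraries.

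Each line has its own table of counts, so the line and its table cannot be told apart in comparisons of the lines. The difference between the responses was tested in a fit of all 8 libraries, as the log2 fold change in J.gamma1 minus that in 6T-CEM. At an adjusted p under 0.05 by edgeR, the difference was called below 0 for 15 of the 32 genes, against 12.4% of the 18552 genes tested. It was called above 0 for 2, HMGCS1 and TM7SF2, against 12.0%. Called or not, it was below 0 for 23 genes and above 0 for 9, and 50.6% of all genes were below 0. INSIG1 had a difference of -0.79 (SE 0.07, adjusted p by edgeR 7.65e-06), STARD4 one of -0.85 (SE 0.14, 0.00145), SQLE one of -0.59 (SE 0.07, 8.05e-05) and SREBF2 one of -0.50 (SE 0.07, 2.48e-04). HMGCS1 was at 0.30 (SE 0.06, 0.00378) and TM7SF2 at 0.94 (SE 0.17, 0.00155). LDB1 itself had a difference of 0.70 (SE 0.09), since it fell less in J.gamma1. Thus 15 genes of the pathway were called with the lower value in the line in which LDB1 fell less. LDB1 was also lower in the control cells of J.gamma1, at 60.2 and 58.8 CPM against 107 and 111 CPM in 6T-CEM sh-NC. In sh-LDB1 its levels were closer, at 33.2 and 30.8 CPM in J.gamma1 and 37.0 and 35.0 CPM in 6T-CEM. A link between the level or fall of LDB1 and these differences was not tested. For LSS, CYP51A1, NSDHL and HSD17B7 the difference was 0.12 (SE 0.09), -0.06 (SE 0.14), 0.15 (SE 0.14) and 0.08 (SE 0.16), and did not pass the test. Among the 15, the calls of AACS, NPC1, DHCR7, ERG28 and INSIG2 were lost when certain single libraries were left out (adjusted p by edgeR up to 0.145, 0.0544, 0.121, 0.0791 and 0.121).

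The control cells of the lines were also compared, and here too the line and its table of counts cannot be told apart. Of the 32 genes, 12 were higher and 9 lower in J.gamma1 sh-NC than in 6T-CEM sh-NC. Of all 18552 genes tested, 34.6% were higher and 31.1% lower, so both counts are near the background. CYP51A1 was lower in J.gamma1 by a log2 difference of -2.74 (SE 0.10) and HMGCS1 by -1.25 (SE 0.04), while INSIG1 was higher by 1.21 (SE 0.05), LPIN1 by 0.89 (SE 0.07) and INSIG2 by 0.83 (SE 0.09). MBTPS2 and SREBF2 were lower, at -0.87 (SE 0.11) and -0.64 (SE 0.05). Per kilobase of exon, the highest levels in 6T-CEM sh-NC were those of FDFT1 (126 CPM per kb), INSIG1 (106), FDPS (105), ACAT2 (105) and HMGCS1 (101). In J.gamma1 sh-NC they were those of INSIG1 (246), FDFT1 (148), FDPS (97.8) and ACAT2 (85.5). CYP51A1 was at 29.7 CPM per kb in 6T-CEM sh-NC and at 4.44 in J.gamma1 sh-NC, so that its place among the 32 genes went from 14 to 29. CYP51A1 shares 2844 and 2827 of its 4171 exon bases with 2 protein-coding genes annotated on the same strand, and EBP 644 of 1768 with 1 such gene, and none of these has values analysed here. With genes that do have counts, MVK, CYP51A1, TM7SF2, TMEM97 and SREBF1 share from 0.528% to 12.3% of their exon bases with MMAB, AKAP9, VPS51, IFT20 and RAI1. CYP51A1, FDPS and HSD17B7 have near-identical pseudogenes, and how reads that match several places were counted is not given, so their levels are uncertain. Between the control cells, some calls were lost by edgeR when a library was left out. They were MVD without 6T-CEM sh-NC replicate 1 or J.gamma1 sh-NC replicate 1 (adjusted p 0.110 and 0.108), STARD4 without J.gamma1 sh-NC replicate 2 (0.0684), MBTPS1 without 6T-CEM sh-NC replicate 2 or J.gamma1 sh-NC replicate 2 (0.0986 and 0.0736), and SCAP without any 1 of the 4 control libraries (0.0669 to 0.148). The SCAP call was also lost by DESeq2 (0.256), and by edgeR with upper quartile factors (0.116), with DESeq2 size factors (0.0501) and without the filter (0.0727). Calls were gained by SC5D under 7 alternatives (adjusted p 0.00653 to 0.0489), by MSMO1 under 5 (0.0191 to 0.0466), by SREBF1 under 2 (0.0251 and 0.0370), by LBR under 2 (0.0347 and 0.0380) and by EBP under 1 (0.0358).

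**Figure D3:**
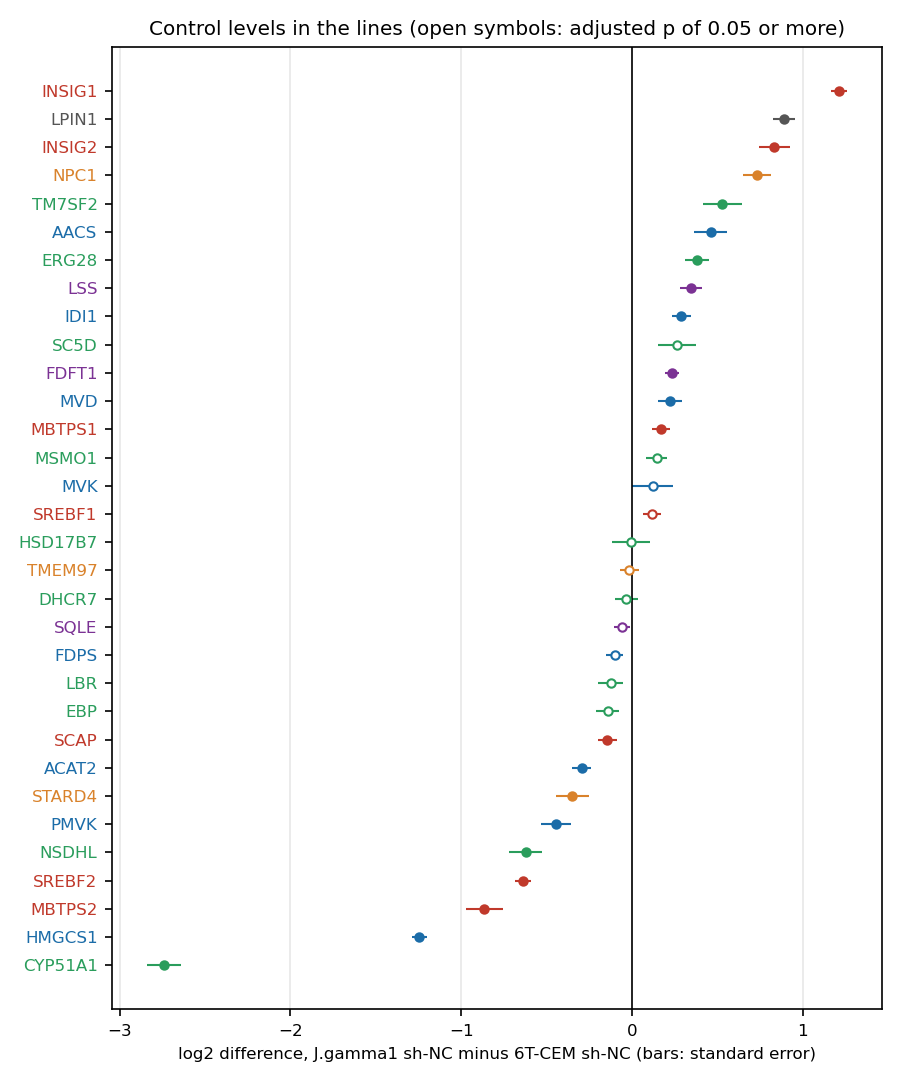
log2 difference between the control cells (J.gamma1 sh-NC minus 6T-CEM sh-NC) for the 32 genes in order of size, with bars for the standard error, colours for the arms and open symbols for an adjusted p of 0.05 or more. The values run from -2.74 for CYP51A1 to 1.21 for INSIG1.

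A list of 36 other genes of the pathway, in the isoprenoid branch, sterol storage and movement, SREBP maturation with enzyme turnover, and electron supply, held calls in both directions. In 6T-CEM 8 of the 35 tested fell and 9 rose, with a median of -0.06, and in J.gamma1 12 of 36 fell and 12 rose, with a median of 0.08. These counts lie nearer to the background, 16.2% lower and 15.1% higher in 6T-CEM and 26.5% and 25.0% in J.gamma1, than the counts of falls among the 32 genes do. FBXW7, a ubiquitin ligase subunit that removes nuclear SREBPs among other factors, had 50.2 and 57.8 CPM in 6T-CEM sh-NC and 115 and 114 CPM in sh-LDB1. The J.gamma1 libraries had 52.9 and 53.1 CPM in sh-NC and 114 and 115 CPM in sh-LDB1, and its log2 fold changes were 1.09 (SE 0.08) and 1.12 (SE 0.05).

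Of the sterol carriers in that list, GRAMD1B rose by 0.49 (SE 0.13) and 1.12 (SE 0.13) on the log2 scale in 6T-CEM and J.gamma1, and GRAMD1C fell by 0.71 (SE 0.22) and 0.82 (SE 0.19). OSBPL2, an oxysterol-binding protein, fell by 0.36 and 1.08. PDSS1, which starts the side chain of coenzyme Q, had 39.8 and 39.3 CPM in 6T-CEM sh-NC and 26.6 and 26.5 CPM in sh-LDB1, and 17.0 and 16.7 CPM in J.gamma1 sh-NC and 21.2 and 21.9 CPM in sh-LDB1. PDSS1 was called in opposite directions, at -0.57 and 0.36. POR and CYB5R3, which supply electrons to CYP51A1 and to the sterol oxidases, rose by 0.53 and 0.34 in 6T-CEM and by 0.27 and 0.72 in J.gamma1. CYB5B, an electron carrier of the same list, fell by 0.29 and by 0.44 in the lines, and CYB5A had 0 counts in 6T-CEM and was not tested there. Both were named after their values were seen.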

How the data were processed

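RNA sequencing of 8 libraries was analysed, 2 per group. Alignment by the authors was to hg38 (HISAT2 2.2.0), with StringTie for quantification, and the deposited values are whole-number counts per gene, not normalized, in 1 table per line. The annotation release, the use of strand and the handling of reads that match several genes are not given in the sources used here. Of 64252 genes, 56105 had a symbol. Exons come from GENCODE on GRCh38. The 32 genes, the other lists, the tests and the alternatives were chosen with earlier results of these data known. edgeR 4.0.16 in R 4.3.3 was used with TMM, filterByExpr, robust quasi-likelihood fits per line and p-values adjusted by Benjamini-Hochberg over every tested gene, with a threshold of 0.05. A fit of all 8 libraries tested the lines against each other. Standard errors were the log2 fold change divided by the root of F. Genes named outside the 32 were the 3 most changed each way per line among those called, with LDB1, overlapping genes and listed markers. A result that the rule would name is not reported here. edgeR's coefficient of biological variation was 9.68% (6T-CEM) and 9.16% (J.gamma1). Replicates correlated at 0.995 to 0.996 (log2), and no libraries were alike within sampling noise. The steps were tested on simulated counts, with a spread that was set and not taken from these data. Of 67 genes changed by 0.5 on the log2 scale, edgeR recovered 19 in each line and 7 for the difference between the lines. Of 67 changed by 1, it recovered 64 (6T-CEM), 65 (J.gamma1) and 49 (difference). A gene without a call may thus still have changed. Alternatives were other scaling factors and filters, DESeq2 1.42.0, a fit of all libraries, a replicate block and each library left out.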

Additional observations from a re-analysis of the deposited data

Results flagged for a closer look

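The response to sh-LDB1 differed between the lines for 17 of the 32 genes and for LDB1, by edgeR's quasi-likelihood test of the interaction over 8 libraries. The adjusted p of the 17 lay between 7.65e-06 and 0.0393. Given as J.gamma1 minus 6T-CEM on the log2 scale, the difference was -0.85 for STARD4, -0.79 for INSIG1, -0.59 for SQLE, -0.56 for MSMO1, -0.52 for IDI1 and -0.50 for SREBF2. It was -0.47 for NPC1, EBP and FDFT1, -0.44 for AACS, -0.42 for ACAT2 and INSIG2, -0.38 for FDPS, -0.36 for ERG28 and -0.33 for DHCR7. It was above 0 for HMGCS1 (0.30), LDB1 (0.70) and TM7SF2 (0.94). With 2 libraries per group no library could be tested as standing apart from its group.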

How the results depend on the processing

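Over the alternatives other than leaving out a library, 20 to 22 of the 32 genes were lower in 6T-CEM and 24 to 25 in J.gamma1, and leaving out each library gave 18 to 21 and 24 to 25. The count of genes higher in 6T-CEM, 2, was 1 without the low count filter and 0 to 2 with a library left out. The count higher in J.gamma1, 3, was 1 without that filter, 1 by DESeq2 and 1 to 2 with a library left out. The median was -0.40 in 6T-CEM with upper quartile factors, and -0.43 to -0.41 in 6T-CEM and -0.76 to -0.62 in J.gamma1 with a library left out. Of the 36 other pathway genes in 6T-CEM, 5 were lower without the filter, and 5 to 10 were lower and 5 to 9 higher with a library left out. The difference between the lines was called below 0 for 14 to 15 genes, and for 11 to 14 with a library left out.

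The deviations of same-numbered libraries correlated at -0.074 (6T-CEM) and 0.030 (J.gamma1) within the lines, at 0.112 between the control groups and 0.132 between the knockdown groups of the lines, and at -0.031 and 0.053 across both. Not every pair was over 0.1, so the number was not taken as a pairing. With the replicate number as a block, 22 genes were lower and 3 higher in 6T-CEM and 25 lower and 2 higher in J.gamma1. LBR in 6T-CEM gained a call (adjusted p by edgeR 0.0348) and MBTPS2 in J.gamma1 lost it (0.0565). Between control cells LBR (0.0380), MSMO1 (0.0371) and SC5D (0.0467) gained a call, which made 14 genes higher and 10 lower in J.gamma1 in place of 12 and 9.

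Of the values of single genes under alternatives, 1477 kept direction and call, 75 lost and 25 gained a call, and 23 changed sign, none of which was called in the main test. Between control cells HSD17B7 was at 0.0049 with DESeq2 size factors, 0.033 with upper quartile factors, 0.0064 without the filter, 0.036 by DESeq2 and -0.064 to 0.050 with a library left out. DHCR7 was at 0.0056 with upper quartile factors, 0.0088 by DESeq2 and -0.13 to 0.054 with a library left out, and TMEM97 at 0.024, 0.027 and -0.061 to 0.012. With a library left out the difference between the lines ranged from -0.28 to 0.13 for CYP51A1, -0.012 to 0.30 for NSDHL, -0.027 to 0.19 for HSD17B7, -0.058 to 0.35 for SC5D, -0.071 to 0.010 for MBTPS1 and -0.12 to 0.014 for LPIN1, and the fold change from -0.057 to 0.13 for LBR in J.gamma1, and from -0.28 to 0.12 for SC5D and -0.025 to 0.085 for MBTPS2 in 6T-CEM.

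Differences between the lines that lost their call (adjusted p by edgeR) were those of NPC1 without 6T-CEM sh-NC replicate 1 (0.0544), of DHCR7 without 6T-CEM sh-NC replicate 1, 6T-CEM sh-LDB1 replicate 2, J.gamma1 sh-NC replicate 1 or J.gamma1 sh-LDB1 replicate 2 (0.0874 to 0.121), of ERG28 without 6T-CEM sh-NC replicate 2, 6T-CEM sh-LDB1 replicate 1, J.gamma1 sh-NC replicate 2 or J.gamma1 sh-LDB1 replicate 2 (0.0541 to 0.0791), of INSIG2 without 6T-CEM sh-NC replicate 1, 6T-CEM sh-LDB1 replicate 2, J.gamma1 sh-NC replicate 1 or either J.gamma1 sh-LDB1 library (0.0508 to 0.121), and of AACS by DESeq2 (0.0502), with upper quartile factors (0.0566), without the filter (0.0549) or without 6T-CEM sh-NC replicate 1, 6T-CEM sh-LDB1 replicate 2 or any J.gamma1 library (0.0551 to 0.145). The cause was not tested. Among the 32 genes the standard errors of the fold changes were largest, at 0.14, for TM7SF2 in 6T-CEM and CYP51A1 in J.gamma1.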
